A study of Mus musculus with 16 samples.

Results

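The 31 genes described here make up the folding machinery of the endoplasmic reticulum (ER) and the unfolded protein response that adjusts it. They were chosen by symbol from a list of ER chaperones, co-chaperones, disulphide isomerases, degradation factors, stress sensors, transcription factors and stress targets, by role and with earlier results of these data known, and all 31 were found among the 18193 genes measured. Where a gene had several probe sets, the brightest on average stands for it, and values are log2 expression after RMA unless a fold is named. RNA of 16 mouse liver samples was read on Affymetrix arrays, 1 array per sample, from male C3H/HeJ mice injected with the liver carcinogen diethylnitrosamine (DEN). The groups were 7 Ctnnb1-mutated tumours and 3 control livers, both under phenobarbital at 0.05% in drinking water for 27 weeks, and 3 tumours mutated in Ha-ras with 3 control livers, both on plain drinking water for 27 weeks. Ctnnb1 encodes beta-catenin, the effector of Wnt signalling, and Ha-ras encodes a small GTPase upstream of the ERK kinases.

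Per the series design, the DEN dose was 10 or 90 µg per g, given to mice aged 2 or 6 weeks, and the labels do not say which sample had which. Other label texts describe phenobarbital in the diet for 28 to 36 weeks, or in water over 28 days, so the course of these samples is uncertain. Mutation and phenobarbital differ together between the tumour types and cannot be told apart when the tumours are compared directly. Whether the samples of a group came from separate animals is not stated, so p-values measure the spread between these samples, which may be partly technical. Tumours are pieces of tissue, in which a change in cell make-up and a change in RNA per cell cannot be told apart.

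Proteins that enter the ER are folded by chaperones such as Hspa5 (BiP) and Hsp90b1 (GRP94), by the lectin chaperones Calr and Canx, and by disulphide isomerases. Unfolded protein is sensed by Ern1 (IRE1), Eif2ak3 (PERK) and Atf6. Ern1 splices the Xbp1 transcript into an active transcription factor, Eif2ak3 slows translation and raises Atf4 protein, and Atf6 is cleaved to release a transcription factor. Xbp1 and Atf6 raise chaperone and degradation genes, while Atf4 raises Ddit3 (CHOP), Atf3, Trib3, Chac1, Asns and Ppp1r15a, which can also respond to amino acid shortage. Hepatocytes secrete most plasma proteins and carry a large ER. The arrays measure transcript levels, not splicing of Xbp1 or activity of the sensors.

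The response is known to act through sequence elements in promoters, and matches to them are shown because those found in chaperone genes and in Atf4 targets were mostly of different kinds. RefSeq windows of GRCm38.p6, from 250 bases before to 50 after each start, were found for 28 of the 31 genes (Manf, Hyou1 and Atf6 were the 3 others). The ER stress response element, read as CCAAT, any 9 bases and CCACG on either strand, lay in 8 of the 28 windows (28.6%), against 39 of all 32851 windows (0.119%). Its 8 genes were Hspa5, Hsp90b1, Calr, Canx, Pdia6, Dnajc3, Creld2 and Syvn1. The second form of the element, ATTGG, any 1 base and CCACG, lay in 2 windows, those of Herpud1 and Dnajb11 (7.14%, against 0.0365% of all windows). The amino acid response core, TGATG, any 1 base and AA, through which Atf4 acts, lay in 5 windows, those of Atf3, Chac1, Trib3, Asns and Herpud1 (17.9%, against 3.97% of all windows). The CRE-like element TGACGTGG lay in 0 of the 28 windows, against 0.676% of all windows, and the CCAAT box, which forms the start of the ER stress response element, lay in 22 (78.6%, against 37.4%). A match describes letters in these windows and is not shown to be a bound site. The ER stress response elements of 5 chaperone and isomerase genes and the Atf4-type cores of 4 stress targets follow, 5′ to 3′ on the strand of the motif, with 10 bases on each side and the fixed letters in capitals.
Hspa5: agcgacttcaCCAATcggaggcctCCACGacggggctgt
Calr: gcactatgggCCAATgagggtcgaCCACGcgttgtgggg
Canx: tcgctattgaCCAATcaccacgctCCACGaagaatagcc
Creld2: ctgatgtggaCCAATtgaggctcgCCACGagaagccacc
Pdia6: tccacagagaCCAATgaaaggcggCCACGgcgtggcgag
Trib3: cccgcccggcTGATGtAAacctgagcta
Atf3: gcggacttggTGATGcAAgtgcgagaag
Chac1: ctggcaggagTGATGcAAcggcagggaa
Asns: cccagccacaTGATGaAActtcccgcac

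The whole window is given for 1 gene of each kind, the one with the largest rise in Ha-ras tumours, Pdia6 (chr12:17266339-17266638, plus strand) and Trib3 (chr2:152344011-152344310, minus strand). They are written 5′ to 3′ on the strand of the gene, and capitals mark the match with its inner bases. Counted from the first transcribed base as 1, the element of Pdia6 began at position −98, and the core of Trib3 lay at positions 15 to 22 on the opposite strand.
Pdia6: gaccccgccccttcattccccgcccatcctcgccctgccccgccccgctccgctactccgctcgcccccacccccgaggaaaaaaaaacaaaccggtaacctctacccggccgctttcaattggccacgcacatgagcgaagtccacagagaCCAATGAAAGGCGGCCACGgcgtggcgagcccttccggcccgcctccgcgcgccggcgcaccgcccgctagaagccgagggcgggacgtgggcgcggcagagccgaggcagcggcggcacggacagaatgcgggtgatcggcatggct
Trib3: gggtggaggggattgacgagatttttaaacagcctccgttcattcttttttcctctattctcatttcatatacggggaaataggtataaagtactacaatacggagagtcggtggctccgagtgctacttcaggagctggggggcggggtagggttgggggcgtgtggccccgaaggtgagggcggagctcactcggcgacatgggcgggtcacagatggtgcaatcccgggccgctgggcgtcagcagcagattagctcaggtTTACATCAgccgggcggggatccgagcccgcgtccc

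All arrays had similar medians, 5.03 to 5.10, and none of the 31 genes lay below the median level of the genes measured (6.21). The hepatocyte markers Alb, Ttr, Apoa1, Apob, Fgb and Hnf4a averaged between 13.77 and 14.25 on every array, and 0 of the 6 passed the test in either tumour comparison. Their mean was 14.18 to 14.25 in the Ha-ras tumours, above the 14.07 to 14.11 of the untreated controls. In Ctnnb1 tumours it was 13.92 to 14.13, against 13.77 to 14.11 in phenobarbital controls. Between the tumour types, 1 of the 6 was lower in Ctnnb1 tumours, where 7.9% of all genes were. Gapdh is read by array controls at its 3′ end and its 5′ end, and the difference between them, a sign of RNA integrity called the Gapdh gap here, was 2.70 in phenobarbital control 6 and −0.15 to 0.32 on the other 15 arrays. Values without that array are given in Ctnnb1 tumours for Hyou1, Pdia3, Ern1, Eif2ak3, Trib3 and Ppp1r15a.

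The 2 tumour types differed in how many of the genes passed the test, although the difference itself was called for a single gene, Trib3. In Ha-ras tumours 6 of the 31 genes rose against untreated controls (Dnajb9, Pdia6, Xbp1, Atf4, Atf3 and Trib3) and 2 fell (Calr and Chac1). Over all genes, 7.21% rose and 6.33% fell in that comparison, so the count of falls was near the background and the share of rises was above it. Yet none of the 31 genes lay below the median level, and calls were more frequent above it. A fit without genes below it called 1085 rises and 871 falls, against 1311 and 1151 over all genes. Against genes of like level the excess of rises is therefore smaller than these shares show. In Ctnnb1 tumours 0 rose and 1 fell against phenobarbital controls (Hyou1), where 6.07% of all genes rose and 5.97% fell, and 6 of the 31 had an unadjusted limma p under 0.05. In Ha-ras tumours 11 had an unadjusted p under 0.05. The share of all genes under that unadjusted cutoff was not counted, here or below, so these counts have no background to be read against. The median log2 change of the 31 genes was 0.05 in Ctnnb1 tumours (all genes −0.03) and 0.11 in Ha-ras tumours (all genes −0.04). No gene passed in both comparisons, and 22 passed in neither. The test was limma over all 18193 genes, called at a Benjamini-Hochberg adjusted p under 0.05. Both counts depended on single arrays. The Ha-ras count was 3 without untreated control 3, 4 without untreated control 1 or Ha-ras tumour 1, and 6 or 7 with another array left out. The all-gene count in Ha-ras tumours, 2462, fell too. It was 1755 without untreated control 3, 1714 without untreated control 1 and 1698 without Ha-ras tumour 1. The Ctnnb1 count was 0 without phenobarbital control 6, and 1 or 2 with another array left out. Over all genes the Ctnnb1 count fell from 2192 to 1337 without phenobarbital control 6. With a fit to the arrays of the groups compared alone, 6 genes rose and 0 fell in Ha-ras tumours, with P4hb called in place of Dnajb9.

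**Figure D1:**
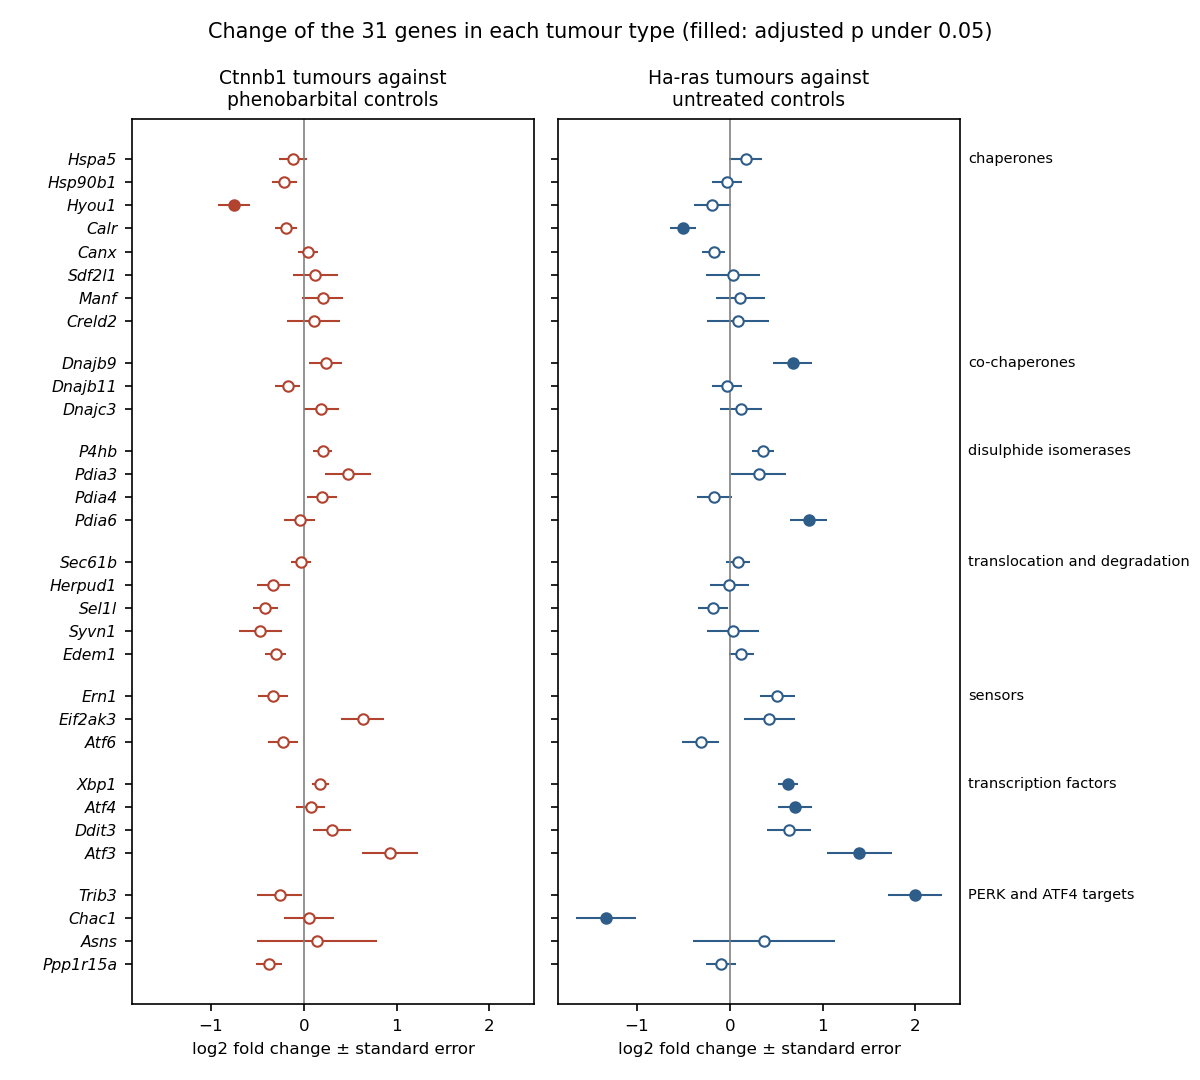
Log2 fold change with its standard error for each of the 31 genes, grouped by role, in Ctnnb1 tumours against phenobarbital controls (left) and in Ha-ras tumours against untreated controls (right), with filled points where the adjusted p was under 0.05. Trib3 (1.99) and Atf3 (1.40) stand farthest right and Chac1 (−1.33) farthest left among the Ha-ras points, and Hyou1 (−0.75) is the filled Ctnnb1 point.

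The transcription factors of the response were higher in Ha-ras tumours, with 3 of 4 called. Xbp1, the factor activated by Ern1, measured 13.27, 13.31 and 13.07 in the Ha-ras tumours, against 12.47, 12.62 and 12.67 in the untreated controls. Every tumour lay above every control, and the rise was 0.63 ± 0.11 on the log2 scale (SE), or 1.55-fold, with a limma adjusted p of 0.00075. All 4 probe sets of Xbp1 rose in this comparison, by 0.62 to 0.94, and the call held whichever array was left out.

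Atf4, the factor translated under Eif2ak3 signalling, measured 11.02, 10.59 and 10.81 in the Ha-ras tumours, against 10.03, 10.29 and 9.98 in the untreated controls. The groups did not overlap and the rise was 0.70 ± 0.18, or 1.63-fold (limma adjusted p = 0.0163). It no longer passed without untreated control 1 or 3 or Ha-ras tumour 1, where the change was 0.60 to 0.67 and the adjusted p 0.0604 to 0.0813. The 2 other probe sets of Atf4 changed by 0.96 and 0.18 and did not pass (limma adjusted p = 0.17 and 0.568). Atf3, a stress-induced factor downstream of Atf4, measured 7.65, 7.04 and 6.89 in the Ha-ras tumours, against 5.63, 5.43 and 6.35 in the untreated controls. All 3 tumours were above the controls and the rise was 1.40 ± 0.35, or 2.63-fold (limma adjusted p = 0.0141). It no longer passed without untreated control 1 or 2 or Ha-ras tumour 1, with changes of 1.17 to 1.31 and adjusted p of 0.0565 to 0.074. Ddit3, the factor known for its part in stress-induced cell death, had a change of 0.63 ± 0.24 and did not pass (limma adjusted p = 0.0955).

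Trib3, a pseudokinase induced through Atf4 and Ddit3, had the largest change of the 31 genes in Ha-ras tumours. It measured 9.63, 9.44 and 9.66 in the tumours, against 6.75, 8.20 and 7.80 in the untreated controls. The tumours were close together and the controls spread over more than 1 log2 unit, yet the groups were well apart. The rise was 1.99 ± 0.29, or 3.98-fold (limma adjusted p = 0.00022), and with each array left out it stayed between 1.58 and 2.30 and called. The second probe set of Trib3 rose by 1.93. In Ctnnb1 tumours Trib3 measured 7.64 at the lowest, 8.09 at the median and 8.39 at the highest, against 8.28, 7.90 and 8.73 in the phenobarbital controls. These groups overlapped, with a change of −0.26 ± 0.24 (limma adjusted p = 0.551), and of −0.05 without phenobarbital control 6.

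Of the other targets of the Eif2ak3 and Atf4 arm, Chac1, Asns and Ppp1r15a were not called upward in Ha-ras tumours. Chac1, an enzyme that breaks down glutathione, measured 7.51, 6.03 and 6.57 in the Ha-ras tumours, against 8.32, 7.23 and 8.55 in the untreated controls. It fell by 1.33 ± 0.32, or 2.52-fold (limma adjusted p = 0.0109), although Ha-ras tumour 1 lay above untreated control 2. Without untreated control 1 or 3 or Ha-ras tumour 2 the change was −1.19 to −0.99 and no longer passed (adjusted p 0.0546 to 0.0629). With the arrays of the groups compared alone, Chac1 did not pass at the same fold (adjusted p = 0.0913). Asns, which makes asparagine, varied widely, at 9.30, 7.48 and 7.35 in the Ha-ras tumours, against 6.63, 7.87 and 8.52 in the untreated controls. Its change of 0.37 ± 0.77 has a 95% interval of −1.26 to 2.00 and settles no direction. Ppp1r15a, the phosphatase subunit that restores translation, changed by −0.10 ± 0.16 in Ha-ras tumours and by −0.37 ± 0.14 in Ctnnb1 tumours, and neither passed (limma adjusted p = 0.768 and 0.0872). It measured 7.55, 7.25 and 8.04 in the phenobarbital controls, the highest being phenobarbital control 6. Without that array the Ctnnb1 change of Ppp1r15a was −0.16 (adjusted p = 0.494). Leaving out phenobarbital control 5 instead gave −0.56, which passed (adjusted p = 0.017). Of the 5 genes with the amino acid response core, 2 rose (Trib3 and Atf3), 1 fell (Chac1) and 2 did not pass (Asns and Herpud1) in Ha-ras tumours.

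**Figure D2:**
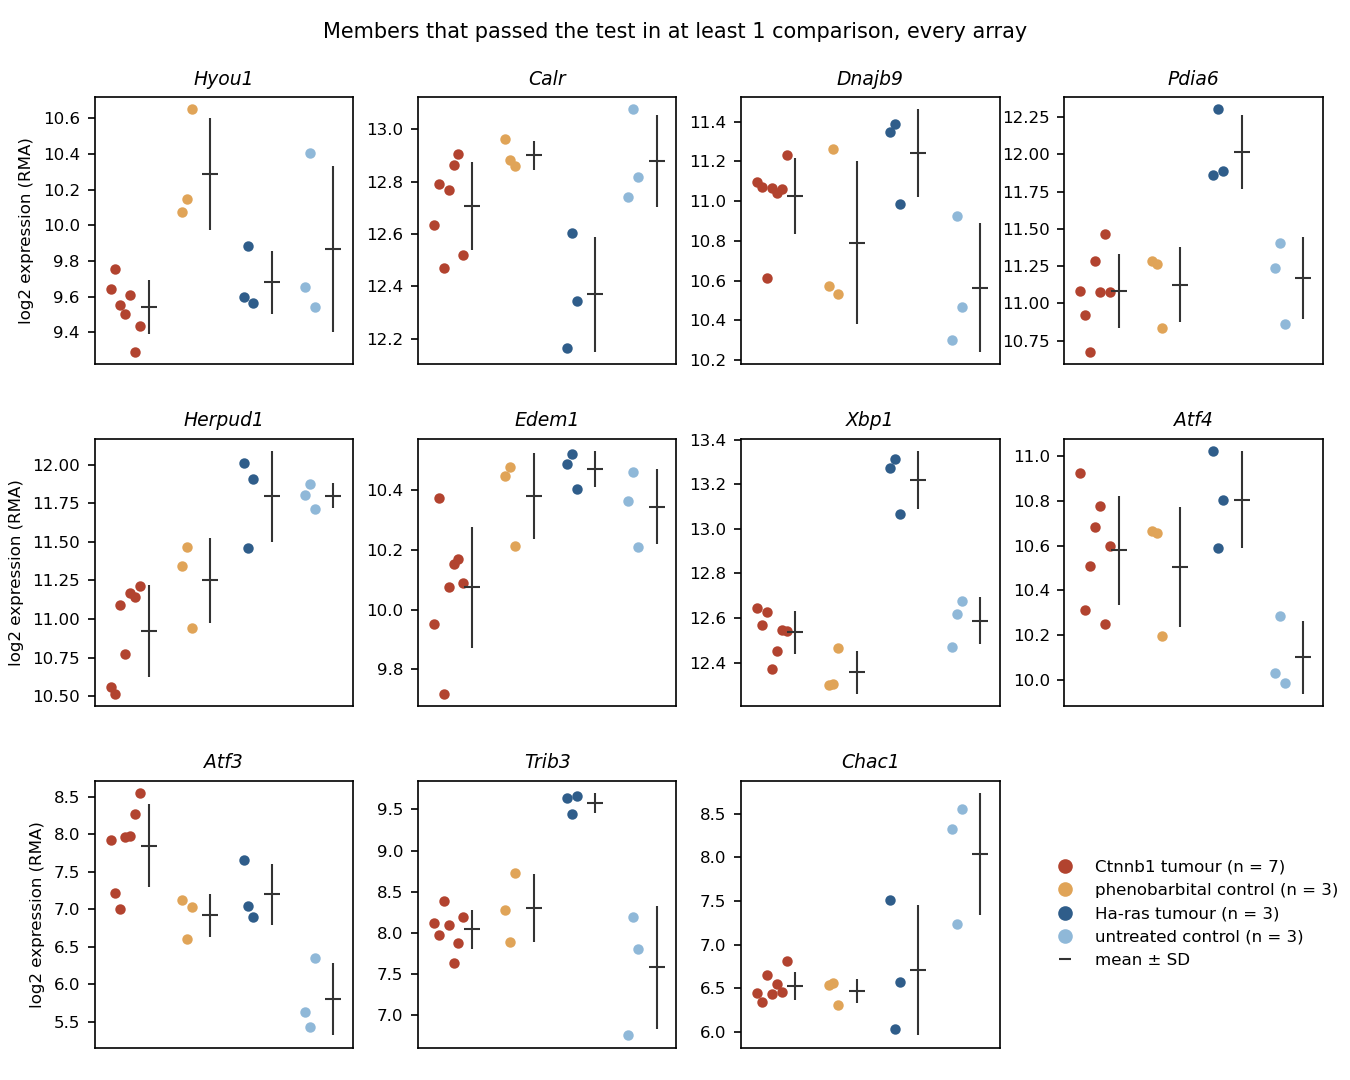
Log2 expression on every array of the 11 genes called in at least 1 comparison, with the mean and SD of each group beside the points. For Trib3, Xbp1 and Pdia6 the 3 Ha-ras tumours lie above every other array, while Atf3 is lowest in the 3 untreated controls.

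Among the 4 disulphide isomerases, Pdia6, which also dampens Ern1 signalling, was the one called in Ha-ras tumours. It measured 11.86, 12.30 and 11.89 there, against 11.24, 11.40 and 10.86 in the untreated controls. The groups did not overlap, and the rise was 0.85 ± 0.20, or 1.80-fold (limma adjusted p = 0.00837). Without untreated control 3 it was 0.70 with an adjusted p of 0.0501. A second, dim probe set of Pdia6 changed by 0.19 and did not pass. P4hb, the major disulphide isomerase, had 13.31, 13.33 and 13.22 in the Ha-ras tumours, against 12.99, 12.92 and 12.89 in the untreated controls. Its groups were apart, but the change of 0.36 ± 0.12 did not pass (limma adjusted p = 0.0629). Pdia3, which works with the lectin chaperones, and Pdia4 changed by 0.31 ± 0.30 and −0.17 ± 0.19 and did not pass.

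Dnajb9 (ERdj4), an Hspa5 co-chaperone that represses Ern1, measured 11.35, 11.39 and 10.99 in the Ha-ras tumours, against 10.30, 10.93 and 10.47 in the untreated controls. The lowest tumour lay just above the highest control. The rise of 0.68 ± 0.21, or 1.60-fold (limma adjusted p = 0.0394), was lost without untreated control 1 or 3 or Ha-ras tumour 1 or 2 (changes of 0.54 to 0.63, adjusted p 0.124 to 0.166). With every array kept, the Dnajb9 call was lost under the fixed replicate block (adjusted p = 0.0505), median centring (0.0655) and a fit to the groups compared alone (0.0539). The other co-chaperones, Dnajb11 (ERdj3) and Dnajc3 (p58IPK, an inhibitor of Eif2ak3), changed by −0.03 ± 0.16 and 0.12 ± 0.22 and did not pass.

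Calr, a calcium-binding lectin chaperone, went the other way. It measured 12.16, 12.60 and 12.34 in the Ha-ras tumours, against 12.74, 13.08 and 12.82 in the untreated controls. The groups did not overlap, and it fell by 0.51 ± 0.14 on the log2 scale (limma adjusted p = 0.0244). Of its 2 other probe sets, 1 fell by 0.54 and 1 changed by −0.45 and did not pass (limma adjusted p = 0.0709). The call was lost without untreated control 2 or 3 or Ha-ras tumour 1 or 3 (changes of −0.54 to −0.41, adjusted p 0.0503 to 0.119) and with the arrays of the groups compared alone (adjusted p = 0.0633).

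The remaining chaperones did not pass in Ha-ras tumours, and the intervals of the 7 uncalled ones ran from −0.63 to 0.80 on the log2 scale, within 2-fold in either direction. Hspa5 measured 13.00, 13.19 and 13.06 in the Ha-ras tumours, against 12.61, 13.39 and 12.73 in the untreated controls, and the tumours lay inside the range of the controls (0.17 ± 0.17, limma adjusted p = 0.606). Hsp90b1, Hyou1, Canx, Sdf2l1, Manf and Creld2 had changes between −0.19 and 0.11. Of the 8 genes with the ER stress response element, 1 rose (Pdia6), 1 fell (Calr) and 6 did not pass.

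The spread among control livers was wide for these chaperones. Untreated control 2 had the highest level of the 3 untreated controls for 8 of 8 chaperones and for 24 of the 31 genes, and for 35.1% of all genes. Sdf2l1, a partner of the co-chaperone Dnajb11, measured 8.76, 10.08 and 8.88 in the 3 untreated controls, and Creld2, an ER stress-induced secreted protein, measured 8.74, 10.25 and 9.19. Manf, a secreted ER stress factor, measured 10.28, 11.56 and 10.55. For each of these, untreated control 2 was more than 1 log2 unit above both others. Within the Ha-ras tumours, tumour 2 was highest for 7 of 8 chaperones and 18 of the 31 genes, and for 30.8% of all genes. The median SD of the 8 chaperones was 0.15 in Ctnnb1 tumours, 0.24 in phenobarbital controls, 0.27 in Ha-ras tumours and 0.44 in untreated controls, where that of all genes was 0.18, 0.21, 0.16 and 0.14. Without untreated control 2, Manf, Creld2 and Sdf2l1 had changes of 0.50, 0.52 and 0.45 in Ha-ras tumours, against 0.11, 0.09 and 0.03 with it, and did not pass either way (limma adjusted p = 0.17, 0.333 and 0.254 without it). The Gapdh gap of untreated control 2 was 0.02, within the range of the other arrays.

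**Figure D3:**
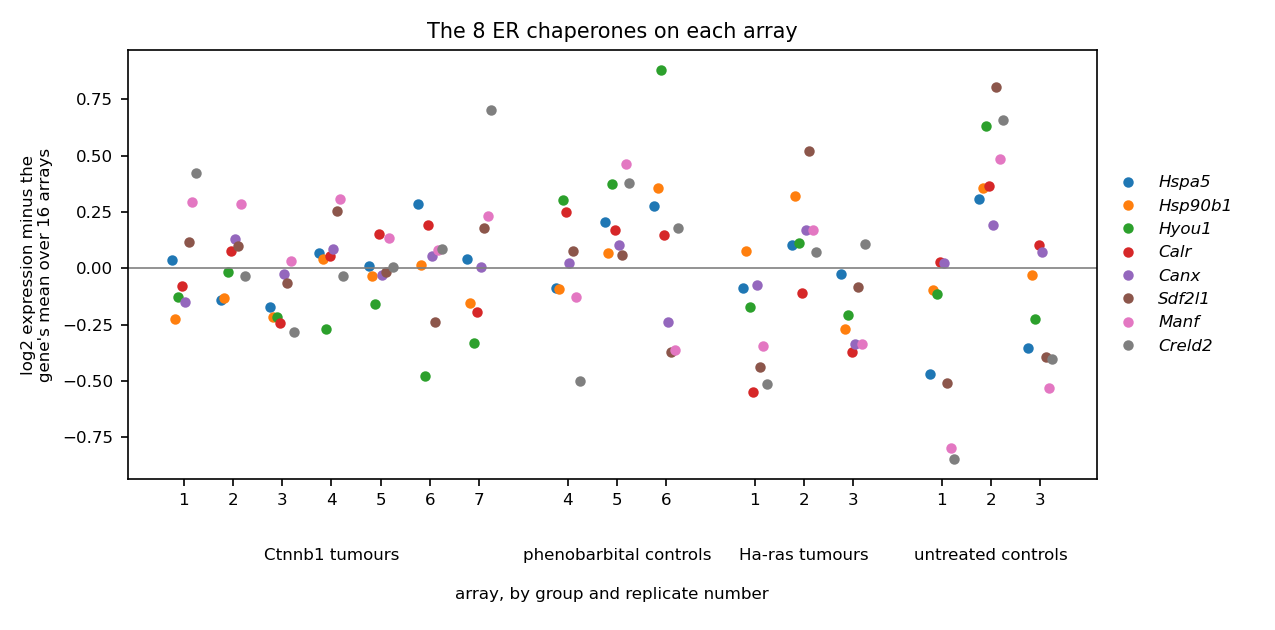
Log2 expression of the 8 chaperones on each array, as the difference from each gene's own mean over the 16 arrays, with arrays ordered by group and replicate number. All 8 lie above their mean in untreated control 2, while most lie below it in untreated controls 1 and 3.

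In Ctnnb1 tumours 1 of the folding genes passed the test against phenobarbital controls. Hyou1 (GRP170), the exchange factor that recharges Hspa5, was that gene. It measured 9.64, 9.75, 9.55, 9.50, 9.61, 9.29 and 9.44 in the 7 tumours, against 10.07, 10.14 and 10.65 in the phenobarbital controls. Every tumour lay below every control, and Hyou1 fell by 0.75 ± 0.17, or 1.68-fold (limma adjusted p = 0.0104). The highest control was phenobarbital control 6, the array with the wide Gapdh gap. Without it the change was −0.57 and the adjusted p 0.0755. With the Gapdh gap of each array as a covariate the change was −0.52 and the adjusted p 0.177. The 2 other probe sets of Hyou1 changed by −0.32 and 0.03 and did not pass.

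The other 7 chaperones had changes between −0.21 and 0.20 in Ctnnb1 tumours, with intervals from −0.50 to 0.71. Hspa5 measured 12.91 at the lowest, 13.12 at the median and 13.37 at the highest in the tumours, against 13.00, 13.29 and 13.36 in the phenobarbital controls, so the groups overlapped (−0.11 ± 0.15, limma adjusted p = 0.674). The 4 disulphide isomerases had changes of −0.04 to 0.48, the highest being Pdia3, at 0.25 without phenobarbital control 6, and the 3 co-chaperones of −0.17 to 0.24, none called. The intervals of 26 of the 30 uncalled genes lay within 2-fold of no change. The exceptions were Pdia3, Eif2ak3, Atf3 and Asns.

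The translocation and degradation genes all had changes below 0 in Ctnnb1 tumours, and 0 of 5 passed. Sel1l, the adaptor of the ER ubiquitin ligase, measured 9.65 at the lowest, 9.95 at the median and 10.17 at the highest in the tumours, against 10.20, 10.44 and 10.40 in the phenobarbital controls. Its tumours were below its controls by a narrow margin, with a change of −0.41 ± 0.13 (limma adjusted p = 0.0551). Without Ctnnb1 tumour 1 or 5 it was −0.45 and passed (adjusted p 0.0439 and 0.0428). Syvn1, the ligase itself, had −0.47 ± 0.24, Herpud1, a scaffold of the same complex, −0.33 ± 0.18, Edem1, which hands misfolded glycoproteins to it, −0.30 ± 0.12, and Sec61b, a subunit of the translocation channel, −0.03 ± 0.11. In Ha-ras tumours the same 5 genes had changes of −0.18 to 0.13, and 0 passed.

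Atf3 in Ctnnb1 tumours came near the threshold. It measured 7.93, 7.22, 7.01, 7.97, 7.97, 8.27 and 8.55 in the 7 tumours, against 7.13, 6.60 and 7.03 in the phenobarbital controls, with 1 tumour inside the range of the controls. The change was 0.93 ± 0.30 (limma adjusted p = 0.0525), and it passed without Ctnnb1 tumour 2 or 3 (1.03 and 1.07, adjusted p 0.0334 and 0.0194). With every array kept, Atf3 passed under the fixed replicate block (1.15, adjusted p = 0.0453), where it was the 1 gene called in place of Hyou1. It also passed under the random block (0.94, adjusted p = 0.0467), with median centring (0.0466) and with dim genes left out (0.0385). Atf4, Ddit3 and Xbp1 had changes of 0.07, 0.31 and 0.18 and did not pass. One other probe set of Xbp1 rose by 0.76 in Ctnnb1 tumours (limma adjusted p = 0.0411), and the 2 remaining ones changed by 0.45 and −0.29 and did not pass, so its direction there depends on the probe set.

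The 3 sensors did not pass in either tumour type. Eif2ak3 had a change of 0.63 ± 0.23 in Ctnnb1 tumours (limma adjusted p = 0.085) and 0.43 ± 0.27 in Ha-ras tumours. It measured 8.71, 8.61 and 7.52 in the phenobarbital controls, and the low value was that of phenobarbital control 6. Without that array the Ctnnb1 change of Eif2ak3 was 0.25 (adjusted p = 0.513). Leaving out phenobarbital control 4 instead gave 0.85, which passed (adjusted p = 0.0471). Ern1 had −0.34 ± 0.16 in Ctnnb1 tumours and 0.51 ± 0.19 in Ha-ras tumours (limma adjusted p = 0.194 and 0.0918), and the Ctnnb1 change was −0.10 without phenobarbital control 6. Without untreated control 2 the Ha-ras change of Ern1 was 0.67 and passed (adjusted p = 0.0461). Atf6 had −0.22 ± 0.16 and −0.32 ± 0.19. Its 2 other probe sets gave the opposite in Ctnnb1 tumours, where they rose by 0.80 and 0.53 (limma adjusted p = 0.00211 and 0.00244), so no direction can be given for Atf6.

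**Figure D4:**
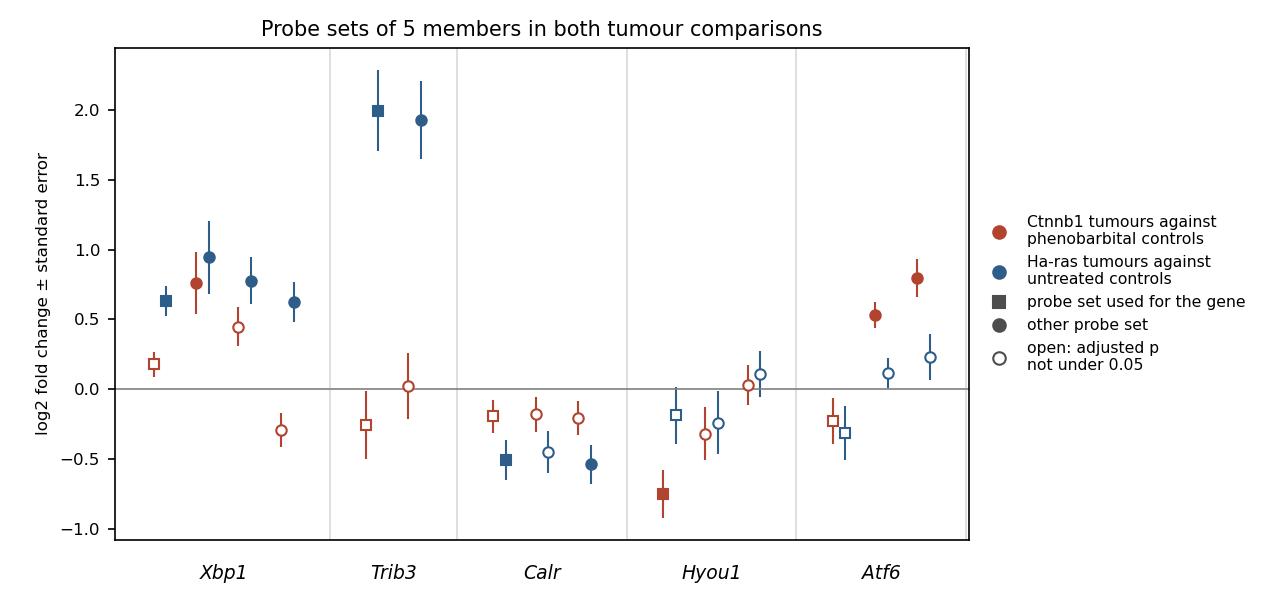
Log2 fold change with its standard error for every probe set of 5 genes in both tumour comparisons, with squares for the probe set used and filled symbols for an adjusted p under 0.05. The 4 probe sets of Xbp1 and the 2 of Trib3 lie together for Ha-ras tumours, while those of Atf6 and Hyou1 spread apart for Ctnnb1 tumours.

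The difference between the tumour effects, Ctnnb1 change minus Ha-ras change, was tested as an interaction. It was called for 0 of the 31 genes upward and for 1 downward, against 2.14% and 3.29% of all genes. Trib3 was that gene, at −2.25 ± 0.38 (limma adjusted p = 0.00193), and its second probe set gave −1.91 and also passed. The value stayed between −2.56 and −1.84 and called with each array left out. An unadjusted p under 0.05 was found for 7 of the 31, with no share of all genes counted. Pdia6 had −0.89 ± 0.26 (limma adjusted p = 0.0564), Ern1 −0.85 ± 0.25 (0.0603), Chac1 1.39 ± 0.42 (0.0706) and Xbp1 −0.45 ± 0.14 (0.072), and none of these passed. Of the other probe sets of Xbp1, 1 gave −0.92 and passed (limma adjusted p = 0.0106). Atf4 passed with the mean of all probe sets (−0.84, limma adjusted p = 0.0249) and with array weights (−0.76, 0.0419). Pdia6 passed without Ctnnb1 tumour 6 or phenobarbital control 6 (−0.95 and −1.04, adjusted p 0.0294 and 0.0345). Ern1 passed without phenobarbital control 5 or untreated control 2 (−1.03 and −1.01, adjusted p 0.0206 and 0.0353). Chac1 passed without Ha-ras tumour 1 or untreated control 2 (1.79 in each case, adjusted p 0.0103 and 0.0108), Xbp1 without Ha-ras tumour 3 (−0.53, adjusted p 0.0441) and Hyou1 without untreated control 2 (−0.83, adjusted p 0.0472). For genes other than Trib3, a call in 1 tumour type and not in the other is not a difference that passed its own test in the main fit.

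Between the control livers, phenobarbital against untreated, 0 of the 31 genes passed in limma in either direction, where 0.132% of all genes rose and 0.0824% fell. An unadjusted p under 0.05 was found for 9 of the 31, with no share of all genes counted. The median change was 0.22, against −0.02 over all genes. Chac1 came nearest, at 6.54, 6.56 and 6.31 in the phenobarbital controls, against 8.32, 7.23 and 8.55 in the untreated controls. The groups did not overlap, and the change was −1.57 ± 0.32 (limma adjusted p = 0.0511). Without untreated control 2 it was −1.97 and passed (adjusted p = 0.0249). Atf3 had a change of 1.12 ± 0.35, Ddit3 of 0.78 ± 0.24 and Ern1 of 0.72 ± 0.19, and none passed (limma adjusted p = 0.186, 0.168 and 0.127). Ern1 measured 10.52, 10.25 and 11.08 in the phenobarbital controls, against 9.78, 10.21 and 9.69 in the untreated controls. Its highest value was that of phenobarbital control 6, the array with the wide Gapdh gap.

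Each tumour type was set against its own controls, and the levels of the stress genes over all 4 groups show where those controls lay. Atf3 averaged 7.85 ± 0.55 in Ctnnb1 tumours (SD, n = 7), 6.92 ± 0.28 in phenobarbital controls, 7.19 ± 0.40 in Ha-ras tumours and 5.80 ± 0.48 in untreated controls (SD, n = 3 each). Its 3 untreated controls were the lowest of the 16 arrays, while the 3 other groups overlapped. Ddit3 had 7.78 to 8.91 in the Ctnnb1 tumours, 7.82, 8.07 and 8.25 in the phenobarbital controls, 8.28, 7.52 and 7.89 in the Ha-ras tumours and 7.13, 7.31 and 7.35 in the untreated controls, again the lowest 3 arrays. Chac1 averaged 6.52 ± 0.16 in Ctnnb1 tumours, 6.47 ± 0.14 in phenobarbital controls, 6.71 ± 0.75 in Ha-ras tumours and 8.04 ± 0.70 in untreated controls, so that the untreated livers had the highest mean. For Pdia6 it was the Ha-ras tumours that stood apart, with means of 11.08 ± 0.25 in Ctnnb1 tumours, 11.13 ± 0.25 in phenobarbital controls, 12.02 ± 0.25 in Ha-ras tumours and 11.17 ± 0.28 in untreated controls. Xbp1 was likewise highest in the Ha-ras tumours, at 13.22 ± 0.13, against 12.54 ± 0.10 in Ctnnb1 tumours, 12.36 ± 0.10 in phenobarbital controls and 12.59 ± 0.10 in untreated controls.

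Compared directly, Ctnnb1 tumours had lower levels than Ha-ras tumours for 5 of the 31 genes and higher levels for 0, where 7.9% of all genes were lower and 7.21% higher. Mutation and phenobarbital cannot be told apart here, and the Ha-ras tumours are those of the comparisons above. Xbp1 measured 12.65, 12.57, 12.63, 12.37, 12.45, 12.55 and 12.54 in the Ctnnb1 tumours, against 13.27, 13.31 and 13.07 in the Ha-ras tumours, a change of −0.68 ± 0.09 (limma adjusted p = 5.74e-05). All 4 of its probe sets fell. Trib3 measured 8.13, 7.97, 8.39, 8.09, 7.64, 7.88 and 8.19 in the Ctnnb1 tumours, against 9.63, 9.44 and 9.66 in the Ha-ras tumours, a change of −1.54 ± 0.24 (limma adjusted p = 0.00037). Pdia6 measured 11.09, 10.93, 10.67, 11.29, 11.07, 11.46 and 11.08 in the Ctnnb1 tumours, against 11.86, 12.30 and 11.89 in the Ha-ras tumours, a change of −0.93 ± 0.17 (limma adjusted p = 0.000993). The second, dim probe set of Pdia6 changed by −0.16 and did not pass (limma adjusted p = 0.615). The groups did not overlap for any of these 3 genes.

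Herpud1 was lower in Ctnnb1 tumours than in Ha-ras tumours, although neither tumour type passed against its own controls. It measured 10.56, 10.52, 11.09, 10.78, 11.17, 11.14 and 11.21 in the Ctnnb1 tumours, against 12.01, 11.46 and 11.91 in the Ha-ras tumours. It fell by 0.87 ± 0.18 (limma adjusted p = 0.00255), and its second probe set fell by 0.87 too. Between the controls Herpud1 had a change of −0.55 ± 0.21, with 11.35, 11.47 and 10.94 in the phenobarbital controls, against 11.80, 11.88 and 11.71 in the untreated controls, and it did not pass (limma adjusted p = 0.265). Edem1 measured 9.95, 10.37, 9.72, 10.08, 10.15, 10.17 and 10.09 in the Ctnnb1 tumours, against 10.49, 10.52 and 10.40 in the Ha-ras tumours. It fell by 0.39 ± 0.12 (limma adjusted p = 0.0326), the highest Ctnnb1 tumour lay just below the lowest Ha-ras tumour, and the call was lost without Ctnnb1 tumour 1 or 4 or any of the Ha-ras tumours (changes of −0.43 to −0.37, adjusted p 0.0513 to 0.123). It was also lost with the mean of all probe sets, median centring or the groups compared alone (adjusted p 0.0512 to 0.149), and the second probe set of Edem1 changed by −0.15 and did not pass (adjusted p = 0.603). The other 4 calls held with each array left out. Calr had 0.34 ± 0.12 and Eif2ak3 0.62 ± 0.23 and did not pass (limma adjusted p = 0.0708 and 0.0857). Calr passed without Ctnnb1 tumour 3 or 7 or Ha-ras tumour 2 (changes of 0.37 to 0.45, adjusted p 0.0372 to 0.0494), and Eif2ak3 without Ctnnb1 tumour 7 (0.70, adjusted p 0.0427). With array weights, Calr, Eif2ak3, Pdia4 and Atf6 passed, all higher in Ctnnb1 tumours (0.37, 0.68, 0.48 and 0.45, adjusted p 0.0367, 0.0129, 0.0285 and 0.0381). Some probe sets not used for the gene also passed. Both others of Atf6 were higher in Ctnnb1 tumours (0.67 and 0.32, limma adjusted p = 0.0036 and 0.0338), as was 1 of Calr (0.40, 0.0383). For Atf4, 1 was lower (−1.25, limma adjusted p = 0.0258).

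Other genes of the ER and of the stress response, in lists that share no gene with the 31, are given for setting. Over all genes 6.07% rose and 5.97% fell in Ctnnb1 tumours, and 7.21% rose and 6.33% fell in Ha-ras tumours. Of 45 other ER folding and translocation genes, 8 rose and 1 fell in Ctnnb1 tumours and 9 rose and 1 fell in Ha-ras tumours. Fkbp11, a prolyl isomerase of the ER, rose by 1.29 in Ctnnb1 tumours and by 2.31 in Ha-ras tumours. Dnajc10 (ERdj5), a disulphide reductase, rose by 0.84 and 0.93. Nucb2, a calcium-binding protein, rose by 2.63 in Ha-ras tumours, and Ero1b, an oxidase that recharges disulphide isomerases, fell by 1.07 there. The interaction was called downward for 5 of the 45, against 3.29% of all genes, and upward for 0, against 2.14%. The largest of these differences were in Nucb2, Ddost, Prkcsh and Ppib. Of 19 other degradation genes, 1 rose (Edem2, by 0.79) and 1 fell (Os9, by 0.47) in Ctnnb1 tumours, and 0 passed in Ha-ras tumours in limma, with 6 at an unadjusted p under 0.05.

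Of 26 other targets of the integrated stress response, the Atf4 programme that several kinases besides Eif2ak3 can start, 6 rose and 1 fell in Ctnnb1 tumours and 3 rose and 3 fell in Ha-ras tumours. Psat1, an enzyme of serine synthesis, rose by 3.45 in Ha-ras tumours and by 1.09 in Ctnnb1 tumours. Fgf21, a liver hormone, rose by 1.87 in Ctnnb1 tumours, as did Gars, the glycyl-tRNA synthetase, by 1.10. Cth, which makes cysteine, fell in both, by 1.10 in Ctnnb1 tumours and 1.30 in Ha-ras tumours, and Aars and Shmt2 fell by 0.85 and 0.79 in Ha-ras tumours. Of 14 upstream regulators, 2 rose in Ctnnb1 tumours (Eif2ak4, by 0.49, and Mbtps2, by 0.44) and 1 in Ha-ras tumours (Creb3l2, by 1.14). Of 14 cytosolic and mitochondrial chaperones, 0 passed in limma in either tumour comparison, with 1 at an unadjusted p under 0.05 in each. Between the tumours 5 were higher in Ctnnb1 than in Ha-ras tumours, among them Hspb1 by 1.91 and Hsph1 by 1.16, where 7.21% of all genes were. The interaction was called for 0 of the 14. Phenobarbital controls also lay above untreated controls for 12 of the 14, with 0 called. Hspb1 averaged 10.14 and 8.60 in these controls, and Hsph1 10.21 and 9.35.

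Markers of other cell types are given beside all genes, of which 6.07% rose and 5.97% fell in Ctnnb1 tumours. In Ha-ras tumours 7.21% rose and 6.33% fell. The lists are short, so 1 marker called is little above these shares. The highest counts were falls of stellate cell and fibroblast markers, and of macrophage markers in Ha-ras tumours. Macrophage markers fell for 1 of 8 in Ctnnb1 tumours and for 4 of 8 in Ha-ras tumours, where their mean was 6.21 to 8.62, against 8.37 to 9.27 in untreated controls. Stellate cell and fibroblast markers fell for 4 of 8 in Ctnnb1 tumours and 3 of 8 in Ha-ras tumours. Markers listed for plasma and B cells, whose secretory pathway is large and depends on Xbp1, had means of 6.00 to 6.64 in Ctnnb1 tumours, against 6.18 to 6.23 in phenobarbital controls, and of 5.99 to 6.64 in Ha-ras tumours, against 6.16 to 6.21 in untreated controls. These means mix unlike levels and do not give the amount of these cells. Sdc1 averaged 10.07 to 10.99 over the groups, and Tnfrsf17, Cd79a and Pou2af1 averaged 3.03 to 4.78, below the median gene. In Ctnnb1 tumours 1 of these 10 markers rose (Ighm, by 2.19) and 2 fell, and in Ha-ras tumours 0 passed in limma, with 2 at an unadjusted p under 0.05. Jchain ranged from 6.21 to 10.50 in the Ha-ras tumours, against 6.18 to 6.75 in the untreated controls. Endothelial markers fell for 1 of 8 in Ctnnb1 tumours and 0 passed in Ha-ras tumours, and bile duct markers fell for 1 of 6 in Ctnnb1 tumours and rose for 1 of 6 in Ha-ras tumours. The part of these cells in the results was not tested.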

How the data were processed

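RNA of the 16 samples was labelled with biotin and read on Affymetrix GeneChip arrays. The values deposited by the authors are on the log2 scale, 1 per probe set, and come from RMA, which corrects background, normalizes arrays by quantiles and sums up probes, run in R 2.14.1 per the submitters' processing notes. They were not scaled again. No detection calls were used, and precision depends on how many arrays a group has.

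Of the 45101 probe sets, 34945 had 1 gene symbol in the platform annotation, and the one with the highest mean was kept per gene, which gave 18193 genes. The fit used limma 3.58.1 under R 4.3.3, with lmFit, a mean for each of the 4 groups and eBayes, on all genes and arrays at once, for 5 comparisons with Benjamini-Hochberg adjustment. For the other probe sets of a gene the adjustment ran over all probe sets. Standard errors are the moderated ones. All 31 members are named, those called in a comparison with every array of its groups, and of other lists up to 4 called genes per comparison. The members and lists were chosen with earlier results of these data known. Replicate numbers were not taken to pair samples in the main fit. Under phenobarbital, correlations of deviations were −0.12 to 0.13 for equal numbers, against −0.18 to 0.15 for unequal ones. Without phenobarbital they were 0.03 to 0.40 for equal numbers, against −0.32 to 0.07 for unequal ones. The highest, 0.40, was that of Ha-ras tumour 2 with untreated control 2. Whether equal numbers mark paired samples was not tested, and fits with a replicate block are given among the other settings. The fit was tested on simulated data. Promoter sequences are from RefSeq (GRCm38.p6).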

Additional observations from a re-analysis of the deposited data

Results flagged for a closer look

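Among the 31 genes, each tested for an array far from the others within the 7 Ctnnb1 tumours, 2 had such an array, where chance flags about 1 gene in 20. Dnajb9 measured 10.61 in Ctnnb1 tumour 3, with the nearest tumour at 11.04 and the highest at 11.23. Dnajc3 measured 10.67 in Ctnnb1 tumour 7, with the nearest tumour at 11.31 and the highest at 11.56. The groups of 3 were not tested in this way.

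The change of Trib3 differed between the tumour types, by −2.25 on the log2 scale (Ctnnb1 change minus Ha-ras change), by the interaction test in limma. The untreated controls of Trib3 spread from 6.75 to 8.20, and the difference stayed called with each array left out. Phenobarbital differs between the arms, so mutation and treatment cannot be told apart in this value.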

How the results depend on the processing

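Of the counts of members called, 1 in Ctnnb1 tumours became 3 with dim genes left out or with the probe set of highest variance, 2 with the random replicate block, the mean of all probe sets, median centring or array weights, and 0 with the Gapdh gap as a covariate or with a joint omission of phenobarbital control 6, Ctnnb1 tumour 6 and Ctnnb1 tumour 7. The interaction count of 1 became 4 with array weights, 3 with dim genes left out, and 2 with the fixed replicate block, the mean of all probe sets, the Gapdh covariate or the joint omission. The count of 0 between controls became 1 with dim genes left out or array weights (Chac1 in each). The count of 5 between tumours became 8 with the probe set of highest variance or the mean of all probe sets and 9 with array weights. The Ha-ras count of 8 was between 6 and 11 under the settings that keep every array and 10 with the joint omission, with 7 under the fixed replicate block and 8 under the random one. With each array left out, the counts were 0 to 2 in Ctnnb1 tumours, 3 to 7 in Ha-ras tumours, 1 to 4 for the interaction, 0 to 1 between controls and 4 to 7 between tumours. Over all genes, the Ctnnb1 count of 2192 was 804 with the fixed replicate block, 836 with the Gapdh covariate and 1383 with the joint omission, the Ha-ras count of 2462 was 3775 and the interaction count of 988 was 1547 with array weights, and the count of 39 between controls was 19 with the groups compared alone, 242 with array weights, 4 with the Gapdh covariate and 21 with the joint omission. With single arrays left out, the all-gene count reached 1337 without phenobarbital control 6 in Ctnnb1 tumours, 648 without untreated control 1 for the interaction, 1745 without Ha-ras tumour 1 between tumours, and 3 to 68 between controls. In Ha-ras tumours it lay between 1698 without Ha-ras tumour 1 and 2273 without Ha-ras tumour 3. Among single genes, Atf6 in Ctnnb1 tumours turned to 0.80 with the probe set of highest variance, 0.37 with the mean of all probe sets and 0.80 and 0.53 with its other probe sets, and Hyou1 to 0.0292 with its dimmest probe set. The fixed replicate block left Hyou1 in Ctnnb1 tumours at −0.82 (adjusted p = 0.0521) and could not be fitted for the 2 comparisons between treatments, since numbers are nested in them. The consensus correlation of the random replicate block was 0.05. The cause of these changes was not tested. The number of arrays, 3 in most groups, limits what can be called.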

Other observations

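Among the 7 Ctnnb1 tumours, tumour 7 had the highest level for 9 of the 31 genes and for 22.3% of all genes. It held the highest Ddit3 (8.91), Atf3 (8.55), Asns (8.55), P4hb (13.51) and Creld2 (10.29) of that group, and the lowest Dnajc3, Eif2ak3 and Sel1l. Nupr1, a stress-induced nuclear protein downstream of Atf4, ranged from 5.97 to 9.51 within the Ctnnb1 tumours, against 5.84 to 8.23 in the phenobarbital controls, and from 6.83 to 8.10 in the Ha-ras tumours, against 5.40 to 5.70 in the untreated controls. Creb3l3, a liver transcription factor released from the ER like Atf6, ranged from 10.38 to 10.79 in the Ctnnb1 tumours, against 10.09 to 10.93 in the phenobarbital controls, and from 10.68 to 11.14 in the Ha-ras tumours, against 11.03 to 11.30 in the untreated controls. These genes were chosen after their values were seen.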
